A study of Mus musculus with 18 samples.

Results

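The Hox genes of the 4 mouse clusters are described here across 18 colon RNA-seq libraries. All rows of the deposited table whose symbol is Hox, a cluster letter from a to d and a number were taken, which gave 37 of 35405 genes: 11 of Hoxa, 10 of Hoxb, 7 of Hoxc and 9 of Hoxd. Hoxc12 and Hoxc13 were not analysed here. The libraries form 3 groups of 6 from colon tissue, with replicates numbered 1 to 6. The vector group is named control in the table. The TNBS group carries the name of trinitrobenzene sulfonic acid, a reactive hapten that provokes colitis in rodents, and the IBC group that of isobavachalcone, a chalcone from plants. Whether the IBC animals also received TNBS is not given in the labels. They give no strain, sex, age, dose or time, no position of the piece along the colon, and do not say whether each library is a separate animal. The p-values below therefore measure the spread between these libraries, which may be technical. Library totals ran from 55669263 to 78874868 counts.

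Hox genes encode homeodomain transcription factors that give cells along the body axis their position. Within a cluster, the genes lie in the order of their paralog numbers, and those with high numbers are known for expression toward the tail end of the embryo, an order kept in adult gut. Hoxa13 and Hoxd13 are known for their part in forming the hindgut and the anorectal region, and Hoxb13 for its expression in the distal colon, rectum and prostate. Levels are given as FPKM, fragments per kilobase of transcript scaled to the size of the library, which can be compared between genes. In the coordinates of the table, for which the sources used here name no genome build, the members of Hoxa lie on chromosome 6 (minus strand), those of Hoxb cover 96085142 to 96259082 on chromosome 11, those of Hoxc 102862862 to 102945278 on chromosome 15 and those of Hoxd 74498654 to 74595486 on chromosome 2 (all on the plus strand).

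The libraries fell into 3 kinds that cut across the groups, with 2 libraries of each group in each kind. Hoxb13 was at least 54.2 FPKM in 12 libraries and at most 0.601 FPKM in the other 6. Among the 12, Hoxd13 was at least 30.6 FPKM in 6 libraries and at most 1.896 FPKM in the other 6. A limit of 10 FPKM in each of these genes therefore gives the same kinds as any limit in those gaps. The 6 libraries low in Hoxb13 were vector 3 and 4, TNBS 2 and 3, and IBC 2 and 5. The 6 high in Hoxb13 alone were vector 2 and 5, TNBS 4 and 6, and IBC 1 and 4. The 6 high in both were vector 1 and 6, TNBS 1 and 5, and IBC 3 and 6. Both genes are themselves Hox genes and the Hoxd13 limit was set after its values were seen, so differences between the kinds are described by ranges, with no average and no test. In whole tissue, fewer cells of a type and less RNA per cell cannot be told apart.

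**Figure D1:**
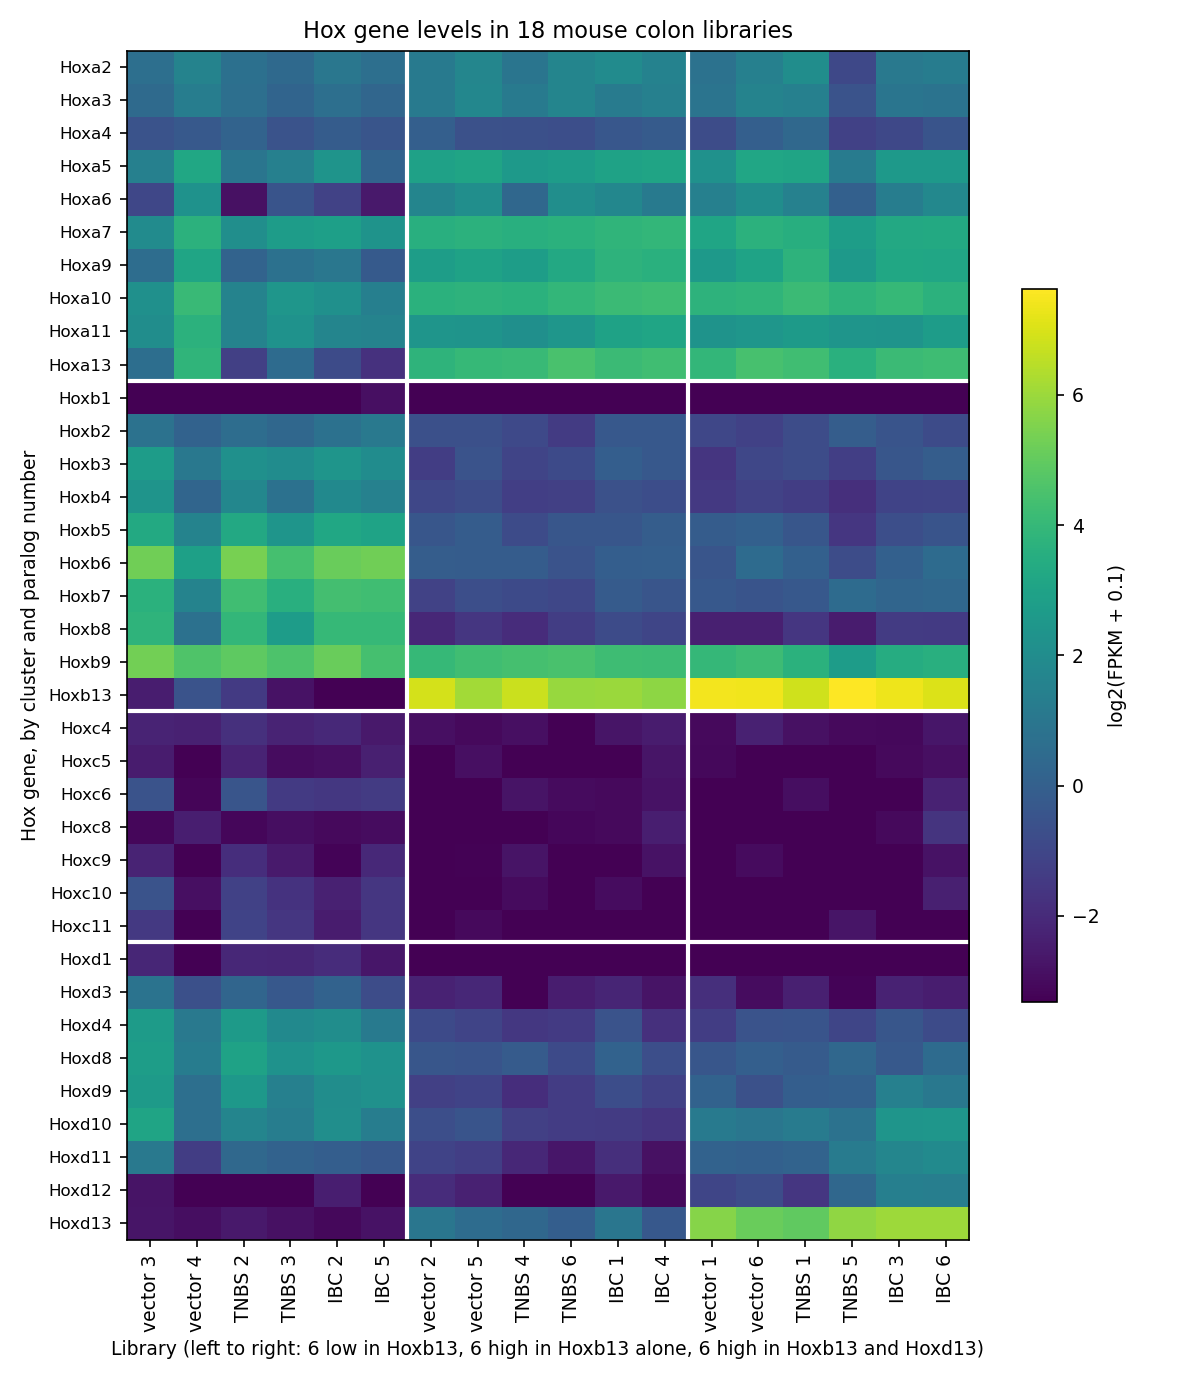
Colour shows log2(FPKM + 0.1) of 36 of the Hox genes (rows, by cluster and paralog number) in the 18 libraries (columns, by kind: 6 low in Hoxb13, 6 high in Hoxb13 alone, 6 high in Hoxb13 and Hoxd13). Hoxb2 to Hoxb8 are brighter in the left block than in the others, Hoxb2 only slightly (1.00 to 2.04 against 0.272 to 0.836 FPKM). Hoxb13 is bright in the 12 libraries to the right of that block, and Hoxd13 in the 6 at the far right. Vector 4 differs from the rest of its block in the Hoxa rows.

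The group 13 genes were nested: Hoxa13 exceeded 10 FPKM in 13 libraries, Hoxb13 in 12 of those and Hoxd13 in 6 of the 12. Hoxb13 read 176 and 170 FPKM in vector 1 and 6, 114 and 198.5 FPKM in TNBS 1 and 5, and 161 and 132 FPKM in IBC 3 and 6. In the libraries high in Hoxb13 alone it read 120 and 68.4 FPKM in vector 2 and 5, 107 and 62.1 FPKM in TNBS 4 and 6, and 63.8 and 54.2 FPKM in IBC 1 and 4. In the low kind it read 0.0855 and 0.601 FPKM in vector 3 and 4 and 0.265 and 0.0453 FPKM in TNBS 2 and 3, and it was listed at 0 in IBC 2 and 5. The ranges of the 2 kinds high in Hoxb13 meet narrowly: the highest value without Hoxd13 (vector 2) lies above the lowest value with it (TNBS 1). Hoxb13 was the most abundant of all Hox genes in each of the 12 libraries, with 31.7 to 61.9% of their summed Hox FPKM.

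Hoxd13 read 49.99 and 35.2 FPKM in vector 1 and 6, 30.6 and 55.5 FPKM in TNBS 1 and 5, and 64.4 and 65.2 FPKM in IBC 3 and 6. It stayed between 0.711 and 1.896 FPKM in the 6 libraries high in Hoxb13 alone and between 0.0188 and 0.0679 FPKM in the low kind. The 3 kinds thus did not overlap in Hoxd13, although only its upper gap was used to define them. Hoxa13 took only low and high values: 12.3 to 22.2 FPKM in the 12 libraries and 14.3 FPKM in vector 4, against 0.193 (IBC 5) to 1.44 FPKM (vector 3) in the other 5. Its ranges in the 2 kinds high in Hoxb13 overlapped, 13.8 to 22.2 FPKM without and 12.3 to 22.0 FPKM with Hoxd13.

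**Figure D2:**
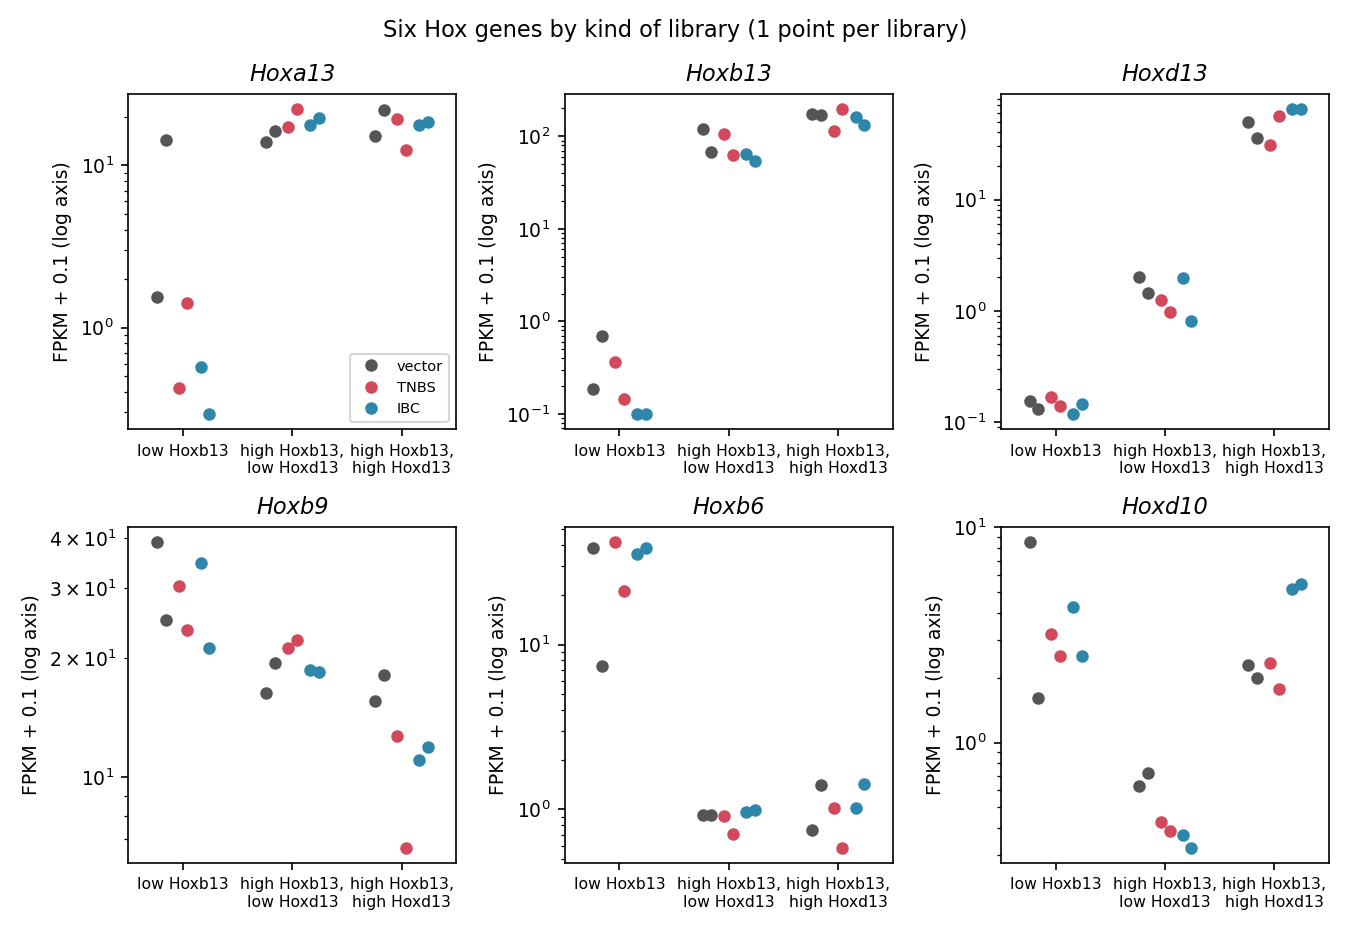
Each point is 1 library's FPKM + 0.1 on a log axis for Hoxa13, Hoxb13, Hoxd13, Hoxb9, Hoxb6 and Hoxd10, by kind of library and coloured by group. In the kind high in Hoxd13 the 2 IBC points are the highest in Hoxd13 and Hoxd10, and the single Hoxa13 point at the height of the other kinds in the low Hoxb13 column is vector 4.

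Over the Hox genes tested, the 12 libraries with high Hoxb13 did not overlap the remaining 6 in 12 of 31: Hoxb13 and Hoxd13 were higher in the 12 (1.63% of all genes tested were), and 10 were lower (1.1% were). Those 10 were Hoxb2, Hoxb3, Hoxb4, Hoxb5, Hoxb6, Hoxb7, Hoxb8, Hoxd3, Hoxd4 and Hoxd8. Without vector 4 the count was 19, with Hoxa6, Hoxa9, Hoxa10 and Hoxa13 also higher (6 in all, background 2.36%) and Hoxc6, Hoxc10 and Hoxd9 also lower (13 in all, background 1.48%). Since Hoxb13 is a member and the kinds were drawn from it, these counts describe the pattern and test nothing.

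The middle of the Hoxb cluster ran opposite to Hoxb13. Hoxb6, a gene of trunk and midgut in the embryo, read 38.7 and 7.35 FPKM in vector 3 and 4, 41.6 and 21.1 FPKM in TNBS 2 and 3, and 35.1 and 38.4 FPKM in IBC 2 and 5. It stayed between 0.487 and 1.34 FPKM in the other 12 libraries. Its lowest value in the 6 belonged to vector 4, and the sets did not overlap.

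Hoxb7 ran from 2.92 to 20.1 FPKM in the 6 libraries and from 0.343 to 1.31 FPKM in the 12. Hoxb8 ran from 1.60 to 16.3 FPKM against 0.0763 to 0.475 FPKM, and Hoxb5 from 2.91 to 10.1 FPKM against 0.230 to 0.933 FPKM. Vector 4 was again the lowest of the 6 in all of these, and Hoxb4 had the same order (1.07 to 5.04 FPKM against 0.175 to 0.562 FPKM). Reads of Hoxb5 and Hoxb6 cannot be told apart from those of the opposite-strand gene Hoxb5os where they overlap, since the strand setting of the counting is unknown from the sources used here. Hoxb7, Hoxb8 and Hoxb4 overlap no other gene of the table, and they show the same order.

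Hoxb9 lies between the 2 patterns in the cluster, and it was high throughout. It read 21.0 to 39.0 FPKM in the libraries low in Hoxb13, 16.2 to 22.1 FPKM in those high in Hoxb13 alone and 6.56 to 17.97 FPKM in those high in both. The ranges of neighbouring kinds overlapped, while the first and the last did not. Hoxb9 led all Hox genes in vector 3, vector 4 and TNBS 3, and Hoxb6 led in TNBS 2, IBC 2 and IBC 5. At the other end of the cluster, Hoxb1 was listed at 0 in 17 libraries and at 0.0360 FPKM in IBC 5.

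The Hoxd cluster had 2 separate blocks. Its anterior genes followed the middle of Hoxb: Hoxd8 ran from 2.32 to 7.89 FPKM in the 6 libraries low in Hoxb13 and from 0.451 to 1.31 FPKM in the 12. Hoxd4 ran from 2.07 to 6.42 FPKM against 0.189 to 0.671 FPKM, also without overlap. Hoxd1 was listed at 0 in 13 libraries, which are the 12 and vector 4. Hoxd3, Hoxd4 and Hoxd8 overlap 1 opposite-strand gene, Hoxd3os1, and Hoxd3 and Hoxd4 overlap each other, so their separate values are uncertain.

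Hoxd9, Hoxd10 and Hoxd11 had 2 high kinds with a low one between them. Hoxd10 read 1.51 to 8.41 FPKM in the libraries low in Hoxb13, 0.225 to 0.624 FPKM in those high in Hoxb13 alone and 1.68 to 5.35 FPKM in those high in both. Hoxd9 had ranges of 1.48 to 6.09, 0.167 to 0.501 and 0.554 to 2.60 FPKM in the same order of kinds. Those of Hoxd11 were 0.301 to 2.04, 0.0388 to 0.359 and 0.926 to 3.74 FPKM. The middle kind lay below both others in Hoxd9 and Hoxd10, and below the last in Hoxd11, where vector 4 (0.301 FPKM) fell within it. Hoxd10 and Hoxd11 both overlap the same-strand gene Gm28309, so their separate values are uncertain. Hoxd9 overlaps no other gene of the table. Hoxd12 was high only where Hoxd13 was high, at 0.228 to 2.51 FPKM against at most 0.165 FPKM in the other 12 libraries. Between the 2 kinds high in Hoxb13, 5 of 31 Hox genes did not overlap, Hoxd9 to Hoxd13, all higher with Hoxd13 (background 0.556%), and 0 were lower (background 0.849%). These 2 kinds were split by Hoxd13, so its own lack of overlap was fixed in advance. The count describes the pattern and tests nothing.

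Within the 6 libraries high in Hoxd13, the 2 IBC libraries had the highest values of all 5 of these genes. Hoxd12 read 2.51 and 2.48 FPKM in IBC 3 and 6 and 0.228 to 1.16 FPKM in the other 4. Hoxd10 read 5.08 and 5.35 FPKM in the IBC libraries against 1.68 to 2.23 FPKM. The order was noticed after the values were seen, and 2 libraries of a group were not tested. How many of all genes show the same order was not counted. The 5 genes are neighbours in the same cluster, so they are not separate observations.

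Hoxa genes were present along the whole cluster. Hoxa10, known for its part in the axial skeleton and the reproductive tract, read 12.5 to 18.9 FPKM in the 12 libraries and 17.2 FPKM in vector 4, against 2.54 to 5.38 FPKM in the other 5. Hoxa9 read 5.81 to 13.4 FPKM and 8.47 FPKM in vector 4, against 0.755 to 1.95 FPKM. The same split held for Hoxa6 (0.924 to 4.14 FPKM, 4.66 FPKM in vector 4, 0.0397 to 0.625 FPKM in the 5). Hoxa7 was less divided, at 6.76 to 15.0 FPKM in the 12, 13.1 FPKM in vector 4 and 3.81 to 7.07 FPKM in the 5, with TNBS 5 the lowest of the 12 and within the range of the 5. Hoxa5, needed in mesenchyme for the pattern of gut and lung, ran from 2.26 to 8.77 FPKM in the 12, 9.14 FPKM in vector 4 and 1.04 to 4.93 FPKM in the 5. These ranges overlap through TNBS 5 and vector 1.

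Hoxa11 stood apart in vector 4. It read 13.3 FPKM there, 4.05 to 5.34 FPKM in the other vector libraries, 2.85 to 6.22 FPKM in TNBS and 2.85 to 8.46 FPKM in IBC. Its opposite-strand neighbour Hoxa11os read 24.3 FPKM in vector 4, 29.0 to 57.4 FPKM in the 12 libraries and 1.17 to 3.01 FPKM in the other 5. Hoxa11os overlaps Hoxa11, so the share of these reads that belongs to each is uncertain, but their orders differ. The pairs Hoxa3 with Hoxa4, Hoxa5 and Hoxa6 share stretches of the same strand in the table, and Hoxaas3 lies opposite Hoxa3 to Hoxa7.

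Hoxc was close to silent. Its highest value in any library was 0.642 FPKM, Hoxc6 in TNBS 2. Summed over its 7 members, Hoxc reached 0.621 to 1.82 FPKM in the 5 libraries low in Hoxb13 other than vector 4, 0.242 FPKM in vector 4 and 0.0368 to 0.554 FPKM in the 12. Hoxc6 and Hoxc10 were above 0.1 FPKM in the 5 libraries, at 0.239 to 0.642 and 0.101 to 0.590 FPKM. In the other 13, at most 0.107 FPKM of Hoxc6 and 0.0967 FPKM of Hoxc10 were read. Hoxc8 and Hoxc9 never passed 0.211 and 0.170 FPKM. Of the 37 genes, 6 did not pass the filter on low counts and were not tested between groups: Hoxb1, Hoxc5, Hoxc8, Hoxc9, Hoxc11 and Hoxd1. Hoxc5 as annotated in the table spans Hoxc6, Hoxc8, Hoxc9 and Hoxc10, so low values within it are uncertain.

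The FPKM-weighted mean paralog number of a cluster summarises where along it the transcripts came from. For Hoxb it was 6.73 to 7.57 in the libraries low in Hoxb13, 11.6 to 12.3 in those high in Hoxb13 alone and 12.4 to 12.7 in those high in both. For Hoxd it was 7.34 to 8.04, 9.70 to 10.3 and 12.4 to 12.6, so that the 3 kinds did not overlap in either cluster. Hoxa moved less, with ranges of 7.09 to 8.80, 8.59 to 9.12 and 8.87 to 9.79, with overlaps between neighbouring kinds but not between the first and the last. The value 8.80 was that of vector 4, and without it the first range ended at 8.04 and did not overlap the second. With log2(FPKM + 1) as weights, which give the most abundant genes less, the kinds of Hoxd again did not overlap. Hoxb then overlapped between those high in Hoxb13 alone (9.13 to 9.85) and those high in both (9.48 to 10.1). Hoxa then also overlapped between the first and the last kind (6.93 to 7.91 and 7.79 to 8.85). That overlap came from vector 4, without which the first range ended at 7.65, below both other kinds. The means of Hoxb and Hoxd rest largely on Hoxb13 and Hoxd13, which also define the kinds. The summed FPKM of all Hox genes was 117 to 183, 171 to 211 and 255 to 327 in the 3 kinds.

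**Figure D3:**
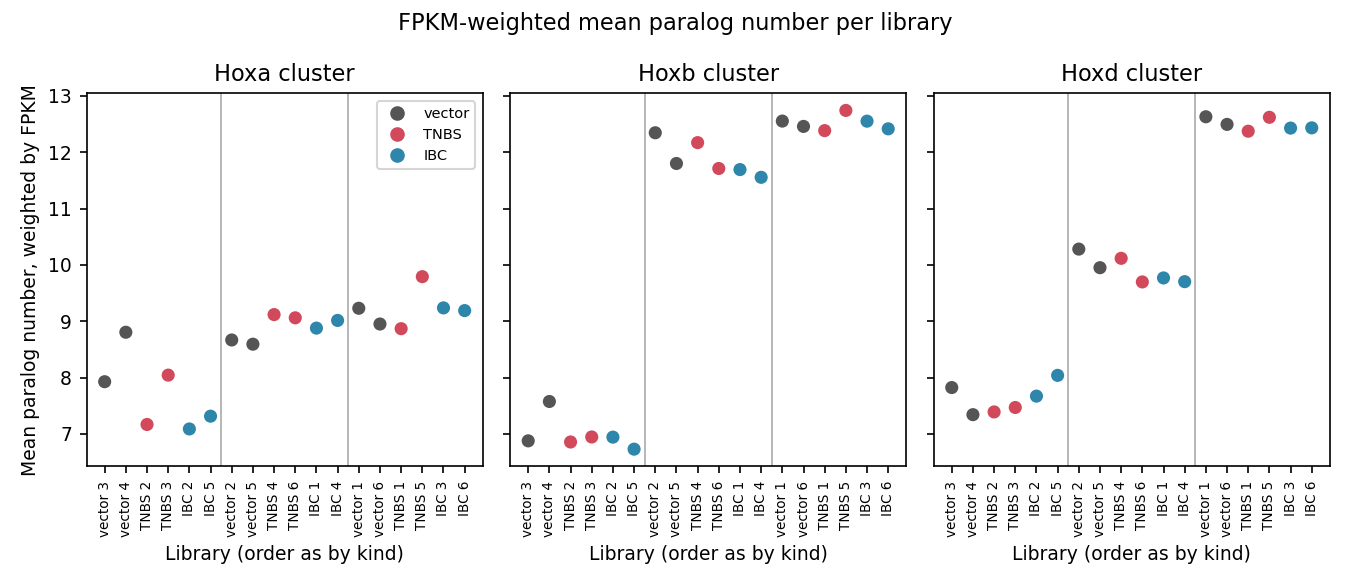
Each point is 1 library's mean paralog number of Hoxa, Hoxb or Hoxd, weighted by FPKM, with libraries along the x axis by kind (separated by vertical lines) and coloured by group. Hoxb rises mainly at the first line, with kinds 2 and 3 close together (up to 12.3 and from 12.4), Hoxd rises at both lines, and the Hoxa value of vector 4 stands at 8.80 among first-kind values of 7.09 to 8.04.

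Promoters of 4 genes that took opposite sides are shown, because they differ in base composition: Hoxa13 and Hoxd13 of the posterior side, and Hoxb8 and Hoxd4 of the anterior side. Each sequence is the 250 bases before the RefSeq transcription start in GRCm38.p6, 5′ to 3′ on the gene's strand. These positions are of that build and are not to be compared with the coordinates of the table. Capitals mark TTTATG, the core letters of the site of CDX homeodomain factors, or its reverse complement CATAAA.
Hoxa13 (chr6:52260881-52261130, minus strand): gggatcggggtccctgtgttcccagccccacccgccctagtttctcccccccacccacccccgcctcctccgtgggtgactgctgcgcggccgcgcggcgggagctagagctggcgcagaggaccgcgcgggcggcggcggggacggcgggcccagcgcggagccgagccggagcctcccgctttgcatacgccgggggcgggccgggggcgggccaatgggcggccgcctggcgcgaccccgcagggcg
Hoxd13 (chr2:74667975-74668224, plus strand): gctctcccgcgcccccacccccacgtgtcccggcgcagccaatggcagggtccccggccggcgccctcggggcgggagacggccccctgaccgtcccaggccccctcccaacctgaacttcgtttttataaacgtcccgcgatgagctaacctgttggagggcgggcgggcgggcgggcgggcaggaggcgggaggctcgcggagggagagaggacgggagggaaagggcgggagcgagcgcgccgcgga
Hoxb8 (chr11:96281655-96281904, plus strand): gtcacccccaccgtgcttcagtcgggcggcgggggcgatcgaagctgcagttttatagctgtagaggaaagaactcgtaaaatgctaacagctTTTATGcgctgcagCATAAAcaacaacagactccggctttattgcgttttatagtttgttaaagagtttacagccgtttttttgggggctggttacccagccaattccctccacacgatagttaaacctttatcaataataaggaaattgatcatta
Hoxd4 (chr2:74721728-74721977, plus strand): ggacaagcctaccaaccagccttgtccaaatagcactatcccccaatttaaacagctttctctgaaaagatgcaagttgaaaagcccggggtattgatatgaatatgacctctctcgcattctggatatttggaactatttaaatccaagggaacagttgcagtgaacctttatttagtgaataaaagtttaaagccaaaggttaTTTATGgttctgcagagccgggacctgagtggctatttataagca

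The Hoxa13 window holds 35 CpG dinucleotides and is 80% G or C, and the Hoxd13 window holds 31 at 74.4%. The Hoxb8 window holds 12 at 44.4% and the Hoxd4 window 3 at 40.4%, against a median of 6 CpG and 52.4% over 32851 RefSeq promoters of this length. TTTATG on either strand, found in 10.8% of those promoters, occurs at 2 places in Hoxb8 and 1 in Hoxd4. Of 24 promoters listed for 22 of the Hox genes, 5 hold it, those of Hoxa7, Hoxb8, Hoxd3, Hoxd4 and one of Hoxd11. High CpG content was not limited to the posterior genes (Hoxa5 has 28 and Hoxd1 24), and not all of those have it. Hoxd10 has 20, Hoxa9 has 3, and Hoxd11 has 2 in one window and 20 in the other. A letter match does not show that a factor binds there.

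Genes that border the clusters followed the nearest Hox genes in several cases, which were chosen for mention after their values were seen. Hottip, a non-coding gene beside Hoxa13, read 3.17 to 13.6 FPKM in the 12 libraries high in Hoxb13, 1.89 FPKM in vector 4 and at most 0.0435 FPKM in the other 5. Evx2, the homeobox gene next to Hoxd13, read 0.734 to 1.67 FPKM in the 6 libraries high in Hoxd13, 0.0374 to 0.186 FPKM in those high in Hoxb13 alone and was listed at 0 in the rest. Evx1, next to Hoxa13, read 1.20 FPKM in vector 4 and 0.329 to 1.66 FPKM in the 12, against at most 0.0353 FPKM in the 5. Ttll6, a tubulin-modifying enzyme beside Hoxb13, ran from 3.64 to 15.2 FPKM in the 12 and from 0.741 to 3.11 FPKM in the 6. Skap1, at the Hoxb1 end, stayed between 0.0666 and 0.445 FPKM in all libraries, and the kinds overlapped.

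Of the factors known to act on Hox genes, Cdx2 and Aldh1a1 also differed between the kinds. Cdx2, an intestinal homeodomain factor, read 90.1 to 148 FPKM in the libraries low in Hoxb13, 52.8 to 102 FPKM in those high in Hoxb13 alone and 18.003 to 43.0 FPKM in those high in both. Its paralog Cdx1 overlapped in all 3 kinds (152 to 222 FPKM overall). Aldh1a1, a retinaldehyde dehydrogenase that makes retinoic acid, read 70.4 to 150 FPKM in the 6 libraries low in Hoxb13 and 3.68 to 18.7 FPKM in the 12. Osr2, a zinc finger factor of gut and limb mesenchyme, read 21.7 to 40.7 FPKM in 5 of the 6, 3.95 FPKM in vector 4 and at most 0.290 FPKM in the 12. Vector 4 was again between the sets in Osr2 and with the 6 in Aldh1a1 and Cdx2 (70.4 and 94.2 FPKM). These genes too were picked for mention after their values were seen.

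**Figure D4:**
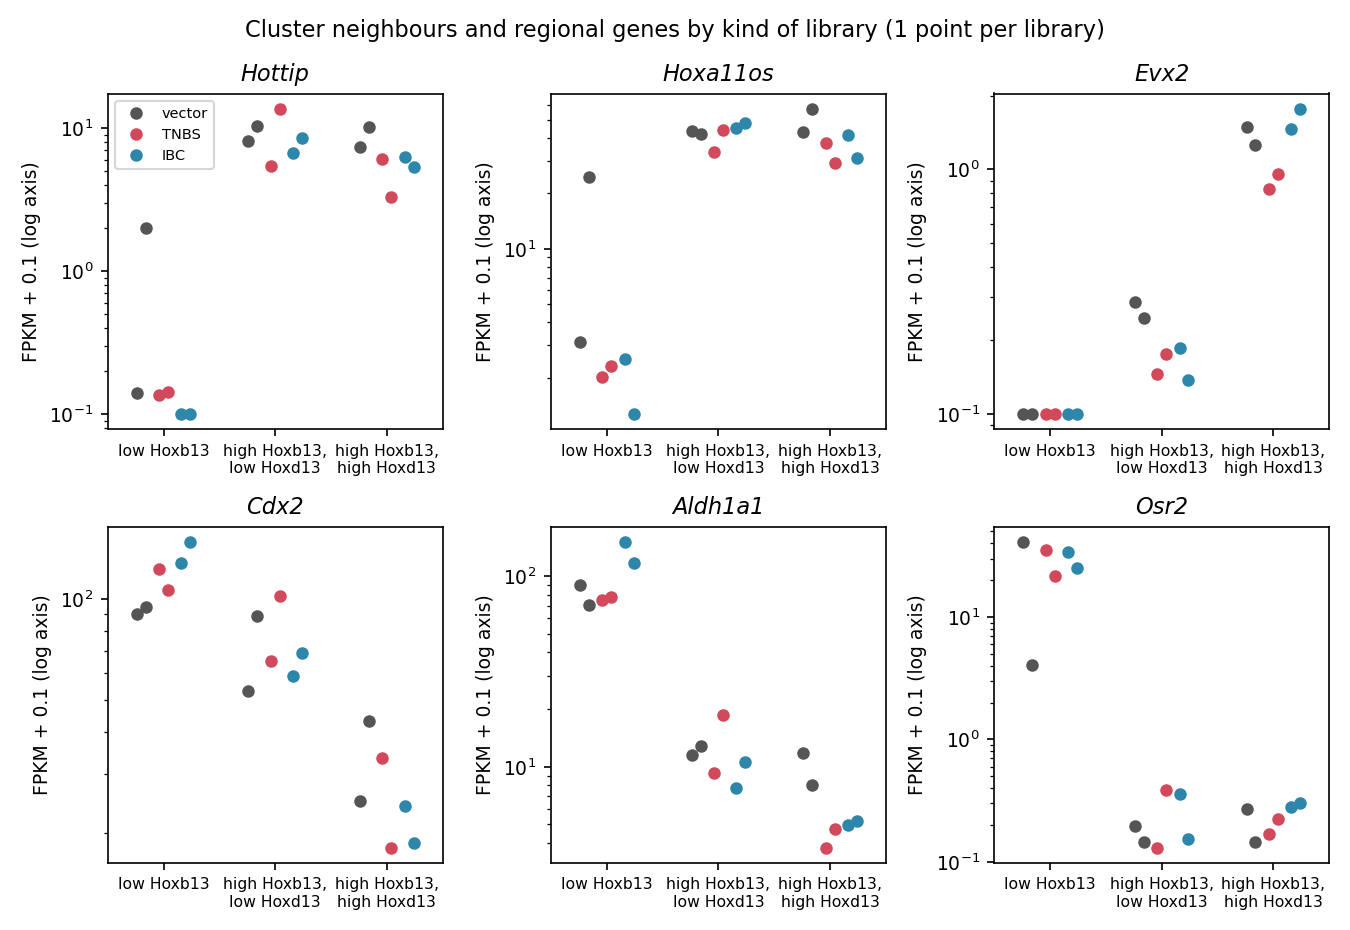
Each point is 1 library's FPKM + 0.1 on a log axis for Hottip, Hoxa11os, Evx2, Cdx2, Aldh1a1 and Osr2, by kind of library and coloured by group. Hottip and Hoxa11os are high in the 12 libraries and intermediate in vector 4, Evx2 is above 0.7 FPKM only with Hoxd13, and Cdx2, Aldh1a1 and Osr2 are highest in the low Hoxb13 column.

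The labelled tissue was checked against markers. Epcam, an epithelial adhesion molecule, read 359 to 753 FPKM, and the 6 smooth muscle markers summed to 683 to 2381 FPKM. The 7 colon epithelium markers summed to 5573 to 13316 FPKM in the 6 libraries low in Hoxb13 and 2809 to 5436 FPKM in the 12. Of 7 small intestine markers, Lct and Apoa4 were at most 0.0271 and 0.0902 FPKM. Almost all of the sum therefore came from the others, Fabp6, Sis, Fabp2, Defa24 and Lyz1, whose separate levels are not given. The sum was 156 to 532 FPKM in the low kind, 58.5 to 210 FPKM with Hoxb13 alone and 17.8 to 49.4 FPKM with both. Of 7 squamous markers measured, Krt5 and Trp63 were at most 0.260 and 0.0155 FPKM. The squamous sum had ranges of 1.11 to 9.03, 1.42 to 13.1 and 2.45 to 104 FPKM, the highest in TNBS 1, where Krt14 read 59.3 and Krt13 43.8 FPKM. Of 5 prostate and seminal vesicle genes measured, 4 were at most 0.468 FPKM and Spink1 read 13.5 to 347 FPKM in the 12 and 0.270 to 8.65 FPKM in the 6. The part of these cell types in the Hox values was not tested.

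Between the groups, no Hox gene changed past the threshold. For TNBS against vector, edgeR's quasi-likelihood test called 0 of 31 Hox genes at an adjusted p of 0.05, where 0.0192% of 20855 genes were called. At an unadjusted p under 0.05 it counted 0 Hox genes (17.8% of all genes). DESeq2 also called 0 Hox genes, where it called 2.77% of all genes, and limma called 0 (0% of all genes). No Hox gene had groups that did not overlap (0.969% of all genes had). The median log2 difference of the Hox genes was -0.04, with 13 of 31 above 0, and that of all genes was -0.01. The 3 genes with the smallest p were Hoxa5, Hoxa6 and Hoxa11.

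Hoxa5 read 2.60, 7.99 and 9.14 FPKM (lowest, median and highest) in vector and 1.83, 4.36 and 8.35 FPKM in TNBS. The groups overlapped over most of their range, with a log2 difference of -0.58 ± 0.41 (SE) and an edgeR adjusted p of 0.448. Hoxa6 read 0.407, 3.58 and 4.66 FPKM in vector and 0.0397, 1.04 and 4.14 FPKM in TNBS, a log2 difference of -0.97 ± 0.77, which was -1.51 without TNBS 6. Hoxa11 differed by -0.36 ± 0.29, and by -0.02 without vector 4, the library in which it stood apart. Of the genes of group 13, Hoxb13 averaged 89.1 ± 78.98 FPKM (SD, n = 6) in vector and 80.3 ± 76.2 FPKM in TNBS, a log2 difference of -0.02 ± 1.66, and Hoxd13 differed by 0.18 ± 1.79.

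For IBC against TNBS, which shares the TNBS libraries with the comparison above, edgeR called 0 of 31 Hox genes and 0% of all genes. At an unadjusted p under 0.05 it counted 0 Hox genes (3.93% of all genes). DESeq2 called 0 (0.00959% of all genes), limma called 0 (0% of all genes), and no Hox gene had groups apart (0.0815% of all genes had). The median log2 difference of the Hox genes was 0.13, with 19 of 31 above 0, and that of all genes was 0.00. Hoxd12, Hoxd10 and Hoxb2 had the smallest p. Hoxd12 was listed at 0 for its lowest and median value in TNBS with 1.16 FPKM as the highest, and read 0, 0.0773 and 2.51 FPKM in IBC. The difference of 1.495 ± 1.54 on the log2 scale had an edgeR adjusted p of 0.926. Hoxd10 differed by 0.69 ± 0.82 and Hoxb2 by 0.36 ± 0.52, while Hoxb13 averaged 68.6 ± 66.8 FPKM (SD, n = 6) in IBC and differed by -0.49 ± 1.67.

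For IBC against vector, which shares its libraries with both, edgeR called 0 of 31 Hox genes and 0% of all genes. At an unadjusted p under 0.05 it counted 0 Hox genes (8.53% of all genes). DESeq2 called 0 (0.892% of all genes), limma called 0 (0% of all genes), and no Hox gene had groups apart (1.3% of all genes had). The median log2 difference was -0.04, with 14 of 31 above 0, against -0.01 over all genes. Among the genes with the smallest p, Hoxa3 differed by -0.39 ± 0.29 and Hoxd12 by 1.96 ± 1.57. The standard errors of the group 13 genes and of Hoxb6 to Hoxb8 exceeded 0.9 on the log2 scale in every comparison. Each group holds libraries of all 3 kinds. A difference must be several times its standard error to pass the threshold, so differences larger than these errors could also be missed in these genes.

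**Figure D5:**
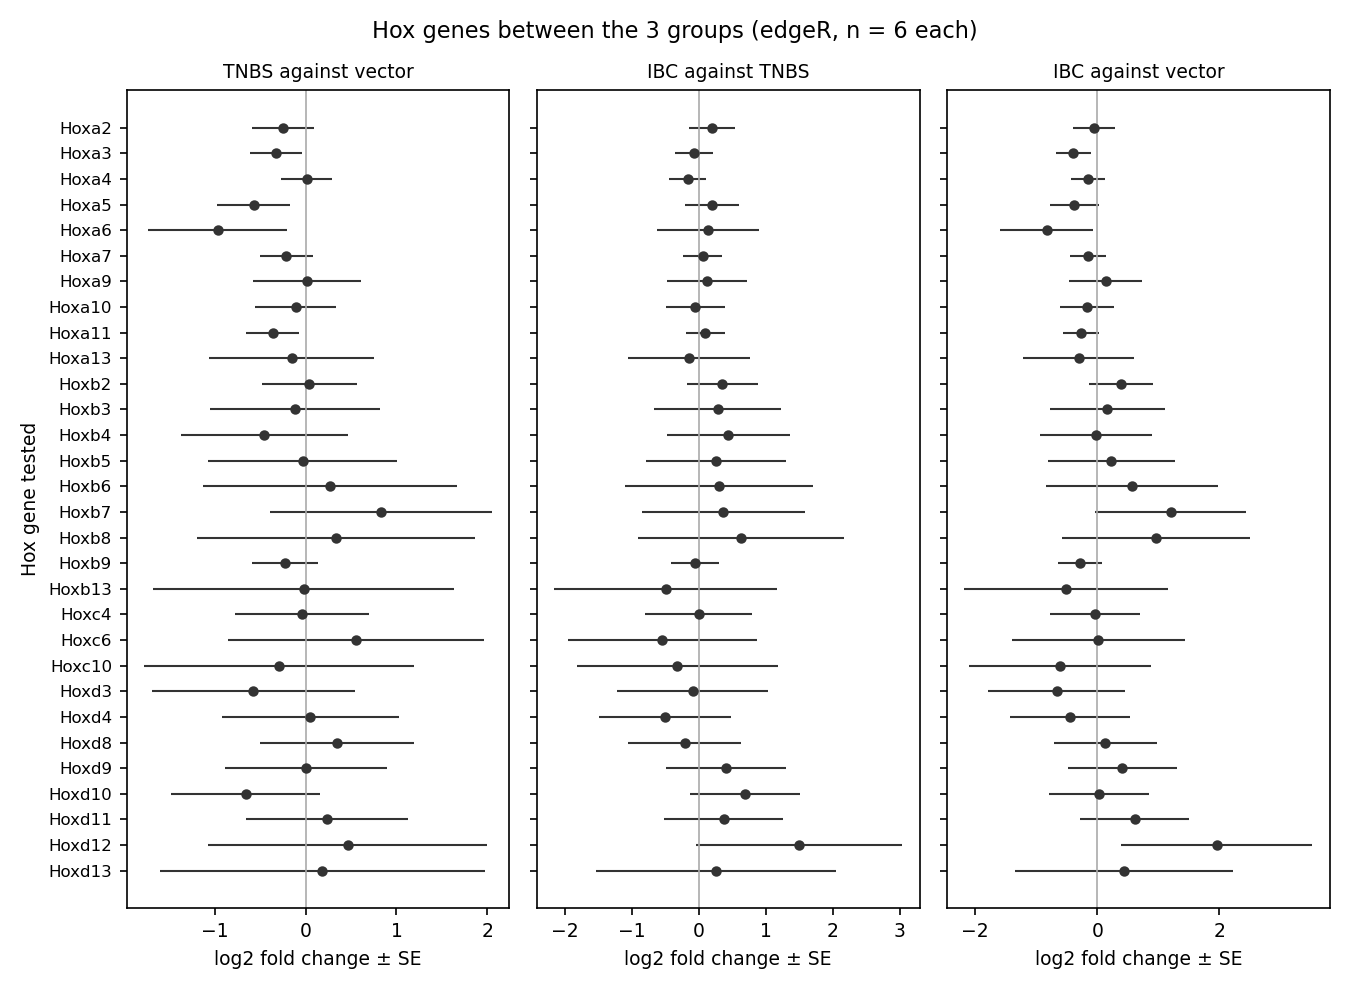
Points are edgeR log2 fold changes and bars their approximate standard errors for 30 of the Hox genes tested, for the 3 pairs of groups (TNBS against vector at the left, n = 6 libraries per group). Most bars cross 0, none of the genes passes the adjusted threshold in any panel, and the bars of Hoxd13 and Hoxb13 are the widest.

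A fit with a term for the 3 kinds, added after the data were seen, narrowed these errors and called 0 Hox genes in each comparison. Of all 20855 genes it called 62 higher and 60 lower in TNBS against vector and 0 in IBC against TNBS. In IBC against vector it called 2 higher and 2 lower. With so few calls over all genes, 0 of 31 is no result about the Hox genes. At an unadjusted p under 0.05 it counted 1 of 31 in TNBS against vector (22.5% of all genes), 0 in IBC against TNBS (5.53%) and 5 in IBC against vector (11.2%). The 5 were Hoxb8 (1.10 ± 0.40 on the log2 scale), Hoxb7 (0.83 ± 0.32), Hoxb13 (-1.28 ± 0.55), Hoxa6 (-1.45 ± 0.67) and Hoxa13 (-1.57 ± 0.74), and the smallest edgeR adjusted p was 0.279. Hoxa6 was also the 1 gene of TNBS against vector (-1.503 ± 0.66, edgeR adjusted p = 0.201). The term was built from Hoxb13 and Hoxd13, and vector 4 differs from the rest of its kind in Hoxa6, Hoxa13, Hoxb7 and Hoxb8.

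Group differences of the Hox genes were also computed within sets of kinds. As differences of mean log2(FPKM + 0.1), the median Hox gene was at -0.18 for TNBS against vector in the 12 libraries high in Hoxb13 (4 per group; all genes -0.07) and at -0.05 in the other 6 (2 per group; all genes 0.00). For IBC against TNBS the medians were 0.38 (all genes 0.19) and 0.02 (all genes -0.05). For IBC against vector they were 0.17 (all genes 0.09) and -0.17 (all genes -0.03). With 1 added in place of 0.1, the medians in the 12 libraries were -0.04 for TNBS against vector (all genes -0.02), 0.18 for IBC against TNBS (all genes 0.09) and 0.09 for IBC against vector (all genes 0.05). Whether other Hox genes vary with Hoxb13 inside a kind was examined over 30 genes in each set of 6 libraries. None passed after Benjamini-Hochberg adjustment of exact permutation p-values (smallest 0.375 with and 0.292 without Hoxd13). With 6 libraries a lone gene could reach an adjusted p of no less than 0.0417 by Pearson's r and 0.0833 by Spearman's rho, so this design could hardly pass 0.05, and the result does not show that the genes vary independently. No r over the 12 is given, since they form 2 separate clusters.

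Genes of the machinery around Hox proteins gave 0 calls by edgeR in each comparison, beside the 0.0192%, 0% and 0% of all genes. Of 9 TALE cofactors, the homeodomain partners with which Hox proteins bind DNA, 1 was above 0 in TNBS against vector (median log2 -0.27), 7 in IBC against TNBS (0.22) and 2 in IBC against vector (-0.09). Their smallest p was that of Meis1 in TNBS against vector, with a log2 difference of -0.94 ± 0.31 (edgeR adjusted p = 0.183). Of 11 Trithorax-group activators, 3, 8 and 3 were above 0 (medians -0.42, 0.14 and -0.23), and Ash2l, a subunit of the histone methyltransferase complexes, had the smallest p (0.34 ± 0.12 in TNBS against vector). Of 15 Polycomb repressors, 6, 10 and 7 were above 0 (medians -0.12, 0.02 and -0.04), with Ezh1 at -0.39 ± 0.14 in TNBS against vector.

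Of 10 Cdx and retinoic acid genes tested, 5, 6 and 8 were above 0 in the same order of comparisons. Aldh1a3, another retinaldehyde dehydrogenase, had the smallest p of them, with log2 differences of 2.17 ± 0.69 in TNBS against vector (edgeR adjusted p = 0.172) and 1.87 ± 0.68 in IBC against vector (0.429). Of 10 non-coding genes of the clusters tested, 2, 8 and 2 were above 0, and Mir196a-1, beside Hoxb9, differed by -0.81 ± 0.31 in TNBS against vector. Of 12 flanking genes, 7, 5 and 4 were above 0, with Calcoco1 at -0.84 ± 0.30, and of 9 gut region factors 2, 4 and 3, with Gata4 at -1.67 ± 0.90, both in TNBS against vector. In IBC against vector, Gata4 differed by -2.59 ± 0.93 (edgeR adjusted p = 0.415). Evx2 differed by -0.61 ± 1.57, 0.60 ± 1.57 and -0.01 ± 1.56, and Skap1 by -0.29 ± 0.36, 0.19 ± 0.36 and -0.10 ± 0.36.

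The 8 lists of cell type markers also gave 0 calls. Medians of those tested in TNBS against vector were 0.01 for colon epithelium, -0.59 for smooth muscle, 0.39 for fibroblast, -0.49 for enteric neuron and glia, 2.13 for squamous epithelium, 0.04 for small intestine, 0.17 for the 1 prostate gene tested (Spink1) and 1.21 for bladder urothelium. Krt14 was among the largest differences, at 4.06 ± 1.09 (edgeR adjusted p = 0.124), and Myh11, the smooth muscle myosin, was at -1.71 ± 0.39 (adjusted p = 0.0909). Their part in the Hox values was not tested.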

How the data were processed

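Polyadenylated RNA of 18 mouse colon libraries had been sequenced, and 1 deposited table was analysed, with 35405 genes. Reads were trimmed with cutadapt 1.9, per the submitters' processing notes. Aligner, counter, annotation and build: not given in the sources used here. Per the file headers, the authors deposited a count and an FPKM value for each gene and library. Counts were whole numbers, and FPKM was proportional to them within a gene in 99.99% of pairs checked (within 2%). Pairs with a count of 4 (19961) outnumbered those with 3 (9977) and 5 (6358), so 1 fragment may add several counts, and no limit is given for a count of 0. The total of each library sets its precision.

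Low counts were removed with filterByExpr (20855 genes kept), totals were scaled by TMM, and genes were tested with the quasi-likelihood test of edgeR 4.0.16 (two-sided, Benjamini-Hochberg over all genes tested, threshold 0.05) in 1 model of the 18 libraries, 1 mean for each group. Levels are FPKM. On log scales 0.1 was added, or 1 in an alternative. Other tools were limma 3.58.1, DESeq2 1.42.0, R 4.3.3, Python 3.11.15, numpy 2.4.6, pandas 2.3.3 and scipy 1.17.1. The test was checked on simulated data of 20855 genes with 200 changed 4-fold. It recovered 75.5% of them in TNBS against vector (5.03% of calls false) and 70.5% in IBC against TNBS (4.73% false). In IBC against vector it recovered 79.5% (4.22% false). These shares are over all the changed genes and do not give the recovery for Hox genes that follow the kinds of library. In TNBS against vector the standard error was 1.66 for Hoxb13 and 1.79 for Hoxd13 on the log2 scale. A 4-fold change in such genes could be missed.

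Genes named are a list of 25 Hox genes, the 3 Hox genes with the smallest p in each comparison, the most abundant gene of each cluster, the smallest p in each list, and Evx2 and Skap1; 1 gene is not reported here. The other neighbours, regulators and marker genes named were chosen after their values were seen. Members, this rule and 15 gene lists (140 genes, 132 in the table) were chosen with earlier results of these data known. No libraries were identical. The labels give no pairing, so libraries were treated as unpaired. Of 18 pairs with the same replicate number, 7 correlated above 0.1 (median -0.01). Values were centred within groups that mix the kinds of library, so these correlations cannot decide whether libraries were paired. Alternatives were DESeq2, its size factors, limma, other filters, the 2 compared groups alone, a replicate block, a term for the kinds of library, counts divided by 4 and leaving out each library.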

Additional observations from a re-analysis of the deposited data

Results flagged for a closer look

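Of 93 sets of 6 libraries (31 Hox genes in 3 groups), 9 had 1 library far from the other 5. For independent normal sets chance gives about 1 in 20, or 4.65 of 93. These sets are not of that sort, since each group mixes 3 kinds of library and many Hox genes follow the kinds. Most of the 9 are vector 3, so they are no measure of an excess over chance. Vector 3 was the low library of its group in 5 Hoxa genes. Hoxa6 read 0.407 FPKM there (2.62 to 4.66 in the others) and Hoxa7 3.81 FPKM (8.61 to 13.1). Hoxa9 read 1.43 FPKM (5.81 to 8.47), Hoxa10 4.42 FPKM (12.7 to 17.2) and Hoxa13 1.44 FPKM (13.8 to 22.0). Vector 3 was also the high library for Hoxc6 at 0.595 FPKM (0 to 0.0114) and Hoxc10 at 0.590 FPKM (0 to 0.0373). It is the 1 vector library with both low Hoxb13 and low Hoxa13.

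Hoxa11 read 13.3 FPKM in vector 4 (4.05 to 5.34 in the others), the library with Hoxa values like those of the 12 libraries high in Hoxb13 but little Hoxb13. Hoxa5 read 1.04 FPKM in IBC 5 (4.93 to 8.41 in the others), a library low in Hoxb13. These values are single libraries and were not tested further.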

How the results depend on the processing

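The counts of Hox genes called (0 in each comparison) stayed 0 in all 23 alternatives per comparison, with smallest adjusted p-values over them of 0.186 for TNBS and 0.279 for IBC, each against vector, and 0.598 for IBC against TNBS. Leaving out each library gave counts from 0 to 0. Both limma fits and the fit with no filter on low counts called 0 of all genes in each comparison. In those, 0 Hox genes called adds nothing. The replicate block also gave 0 Hox calls in each comparison. The labels do not say that a shared number is a pairing, so this says nothing on the design. One named difference reversed: Hoxb2 in IBC against TNBS was 0.36 and became -0.0433 without IBC replicate 5 (up to 0.597 without TNBS replicate 2). Hoxa11 in TNBS against vector (-0.36) ran from -0.44 to -0.02 without 1 library, the last without vector replicate 4, and Hoxa6 (-0.97) from -1.51 without TNBS replicate 6 to -0.72 without TNBS replicate 2, and to -1.57 with the replicate block. Hoxd12 in IBC against TNBS (1.495) ran from 0.76 without IBC replicate 3 to 4.15 without TNBS replicate 5. In IBC against vector (1.96) it was 1.23 without IBC replicate 3 and 0.11 with the term for 3 kinds. The count of Hox genes that did not overlap between the 12 libraries with high Hoxb13 and the remaining 6 was 12, and 19 without vector replicate 4; the cause of these changes was not tested. Over all genes, DESeq2 called 336 genes higher and 242 lower in TNBS against vector where edgeR called 4 in all, with 0 Hox genes in either. In the same comparison, edgeR without TNBS replicate 6 called 201 of all genes higher and 122 lower. With a term for libraries high in Hoxb13 it called 74 higher and 68 lower. Depth limits Hoxc, Hoxb1, Hoxd1 and Hoxd12, whose values rest on few counts.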

Other observations

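TNBS 5 had the lowest value of the 12 libraries high in Hoxb13 in 12 of the 37 Hox genes. Of these, 7 were Hoxa genes (Hoxa2 to Hoxa7 and Hoxa13), and its Hoxb13 was the highest of all libraries (198.5 FPKM). The share of all genes that were lowest in TNBS 5 was not computed. Low values were not limited to Hox genes in this library. The sums of the TALE cofactors, Polycomb repressors and Trithorax-group activators were also its lowest of the 18 libraries (15.9, 59.9 and 31.5 FPKM). Hoxa2 read 0.417 FPKM in TNBS 5 and Hoxb9 6.56 FPKM. In the same library Kmt2a and Kmt2d, histone methyltransferases with long transcripts, read 0.366 and 0.188 FPKM, against at least 1.06 and 1.38 FPKM in the other 17. The order was noticed after the values were seen, and its source was not tested.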
